A study of Mus musculus with 52 samples.

Results

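The comparison described here sets 14 d against 7 d of reloading in the gastrocnemius muscle of aged mice that drank plain water. Its members are the 4 libraries titled as 14 d reloading controls and the 4 titled as 7 d reloading controls, 8 of the 52 libraries of the series. All mice of both groups were male C57BL/6 mice of 22 to 24 months, went through hindlimb unloading before they bore weight again, and received no agent in the water. The rest of the series holds an ambulatory group and a group taken at the end of unloading, both on water, and unloaded or reloaded mice of the same age, sex and strain given metformin, leucine or both in the drinking water, with 4 libraries in each of 13 groups. RNA was total RNA of whole muscle tissue from which ribosomal RNA had been removed, so that fibres, immune cells, vessels and connective tissue all contribute. Libraries are called by their day and the replicate number of the title, which is 1, 2, 3 or 4 at 7 d and 1, 3, 4 or 5 at 14 d. Each library was taken as 1 mouse. The labels do not state how tissue from separate mice maps to libraries. P-values then measure only the spread between libraries within groups, which the main fit draws from all 52 libraries.

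Hindlimb unloading removes weight from the hind legs, and the gastrocnemius, a calf muscle of mostly fast fibres, loses mass. When weight returns, the muscle passes through an early phase in which fibres are damaged and macrophages enter to clear debris. A later phase of protein synthesis and growth follows. Aged muscle is known to regain mass slowly. A comparison of the later with the earlier time point therefore asks which transcripts still moved between the first and the second week of reloading.

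Levels are given as CPM, the counts of a gene relative to the scaled total of its library, and differences as log2 fold changes with a standard error (SE), positive where the 14 d group was higher. Of 16668 genes tested, 6 changed (0.036%) at an adjusted p under 0.05 in edgeR's quasi-likelihood test fitted to all 52 libraries. Those that rose were Haghl, Atf4, Pfkm, Pip5k1a and Rc3h1 (0.03% of genes), and n-R5-8s1, a gene for the 5.8S ribosomal RNA, fell (0.006%). At an unadjusted p under 0.05 stood 1905 genes (11.4%), 1089 of them higher (6.53%) and 816 lower (4.90%). The median log2 fold change over all genes was 0.01, and the median of its absolute size was 0.20. The median SE was 0.23.

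The number of genes that passed differed between fits, which also tested different numbers of genes. With the 8 libraries of the comparison alone, 390 of 14450 genes passed (2.7%), 222 higher (1.54%) and 168 lower (1.16%). With the 16 libraries on water, 801 of 15133 passed (5.29%), 445 higher (2.94%) and 356 lower (2.35%). DESeq2 on all 52 libraries called 36 genes and limma voom called 1324. All 6 changed genes also passed in each of these 4 fits. Leaving out 1 library ended most calls: none of the 6 genes passed without 7 d library 3 or 4 or 14 d library 3 or 4, when 1507, 1510, 1248 and 1367 genes stood at an unadjusted p under 0.05 by the same edgeR test. Without 7 d library 1, 7 d library 2 and 14 d library 5 the counts were 2, 3 and 3, and without 14 d library 1 the count was 8.

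Several of the 8 libraries stood apart from their group, and library totals ran from 16344540 to 22797190 counts. In 14 d library 5 the summed level of 16 liver transcripts was 181 CPM, with Alb at 77 CPM, against sums of 8.63 to 18.4 CPM in the other 7 libraries. Of the 52 libraries, 12 held over 16 CPM of Alb; without them 1 gene changed. Slow fibre transcripts summed to 54.4 CPM in 14 d library 3 and 1092 CPM in 14 d library 1. Within each group, counts differed by more than sampling noise in every pair of libraries.

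Atf4 rose between 7 and 14 d of reloading. It encodes the transcription factor that cells make when the integrated stress response is on, and that drives genes for amino acid uptake, amino acid synthesis and the loading of transfer RNAs. Its level was 38.4, 44.1, 36.8 and 36.4 CPM in the 7 d libraries and 56.4, 64.9, 68.9 and 60.0 CPM in the 14 d libraries. Every 14 d library was above every 7 d library. The means were 38.9 ± 3.56 and 62.6 ± 5.47 CPM (SD, n = 4), a 1.61-fold difference (log2 0.68, SE 0.13, adjusted p = 0.0132). Ambulatory mice had 41.6 ± 4.24 CPM and unloaded mice 53.6 ± 1.81 CPM, so that the 7 d level lay near the ambulatory one and the 14 d level above that of the unloaded group. Atf4 lies on mouse GRCm38 at chr15:80255184-80257541 on the plus strand. Its call was lost without 7 d library 1, 3 or 4 (adjusted p = 0.0756, 0.115 and 0.141), without 14 d library 3 or 4 (0.0685 and 0.101) and without the libraries high in Alb (0.171), with the same direction each time.

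**Figure D1:**
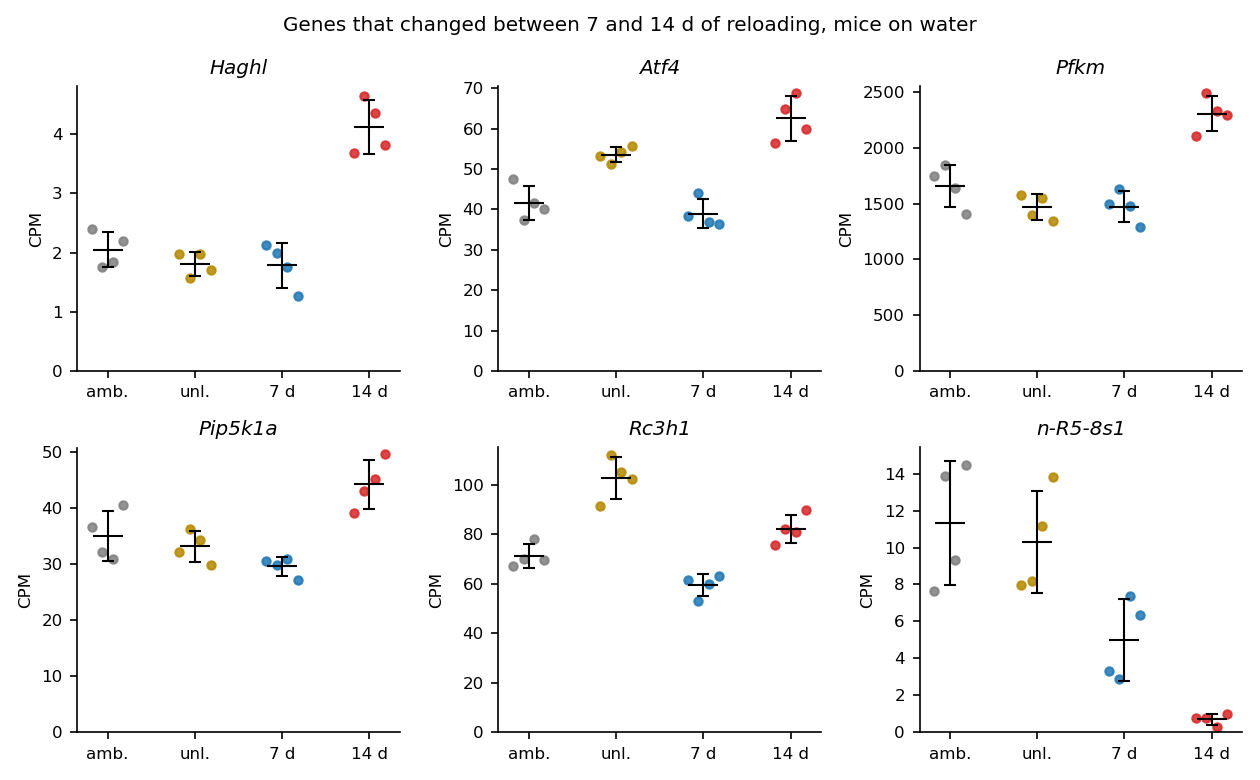
Levels of the 6 changed genes in the 4 groups on water. Each dot is 1 library, the horizontal mark is the group mean and the bar its SD; the y axes give CPM and start at 0, and the x axis gives ambulatory (amb.), unloaded (unl.) and 7 d and 14 d of reloading. In each panel the 4 libraries at 14 d lie all above, or for n-R5-8s1 all below, the 4 at 7 d.

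Genes of the ATF4 pathway, Atf4 included, were higher in sum at 14 d, with members on both sides. Among 21 tested members of a list of 23 ATF4 and integrated stress response genes, 1 changed, Atf4 itself, beside 0.03% of all genes that rose. At an unadjusted p under 0.05 stood 5 higher members, Atf4 among them (all genes 6.53%), and 1 lower (all genes 4.90%), and 16 of 21 fold changes were positive (all genes 51.5%). The list's median log2 fold change was 0.22, or 0.14 without 14 d library 1, and 0.01 over all genes. The summed level was 583, 463, 579 and 587 CPM at 7 d and 624, 707, 674 and 907 CPM at 14 d. All 14 d sums were therefore above all 7 d sums, while the ambulatory range of 567 to 814 CPM spanned most of both. Such a gap was not particular to this list. Of 51 gene lists, 7 had every 14 d sum above all 7 d sums, and 7 had every 14 d sum below them. Among them were lists whose sums are not given here, such as pericyte and smooth muscle markers (higher) and imprinted growth genes (lower).

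Ppp1r15a, a gene of the same response that was not on the list and brings a phosphatase to eIF2 alpha and so ends the stress response, was at 15.1, 10.1, 12.7 and 15.2 CPM at 7 d and 23, 19.1, 27 and 19.4 CPM at 14 d. Its log2 fold change was 0.73 (SE 0.18), with no overlap between the groups, and its adjusted p of 0.16 missed the threshold. Mthfd2, a mitochondrial enzyme of one-carbon metabolism, went from 1.74 ± 0.441 to 2.93 ± 0.565 CPM (SD, n = 4; log2 0.74, SE 0.30, adjusted p = 0.366). The lower member was Psat1, an enzyme of serine synthesis, from 1.25 ± 0.585 to 0.648 ± 0.308 CPM (SD, n = 4; log2 -0.92, SE 0.44, adjusted p = 0.416). Asns, the asparagine synthetase, had a log2 fold change of -0.29 (SE 0.48, adjusted p = 0.85), Slc7a11, the cystine transporter, one of -0.91 (SE 0.87, adjusted p = 0.709), and Trib3, an inhibitor of the pathway, one of -0.13 (SE 0.49, adjusted p = 0.941). Classic targets thus lay on both sides of 0.

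Amino acid transporters and transfer RNA synthetases were put together as lists after values had been seen, and support nothing. Of 25 transporters, 3 stood at an unadjusted p under 0.05, all higher (all genes 6.53%), with a median log2 fold change of 0.17, or 0.11 without 7 d library 4 and 0.26 without 14 d library 4. Their sums were 473 to 503 CPM at 7 d and 556 to 648 CPM at 14 d. Slc38a2, a sodium-coupled transporter of neutral amino acids, stood at 93.9, 92.0, 98.1 and 89.1 CPM at 7 d against 169.6, 143, 112 and 175 CPM at 14 d (log2 0.68, SE 0.19, adjusted p = 0.223). Its unloaded mean was 197 ± 19.2 CPM and its ambulatory mean 122 ± 9.32 CPM. In this gene the 7 d level was the lowest of the 4 groups on water. Of 20 cytosolic synthetases, 5 stood at an unadjusted p under 0.05, all higher (all genes 6.53%), with a median of 0.02. Mars, which charges methionine transfer RNA, was at 21, 24.5, 22.0 and 19.5 CPM against 29.4, 33.2, 32.4 and 29.8 CPM (log2 0.52, SE 0.13, adjusted p = 0.19). Mars overlaps Ddit3 on the opposite strand. No source used here gave the strand setting of the counting, so a gene with such a partner may hold some of the partner's reads.

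Genes of translation initiation and of the mTORC1 pathway, which couples nutrients and growth factors to protein synthesis, were slightly higher as a list. Of 26 tested, 0 changed, 7 were higher (all genes 6.53%) and 1 lower (all genes 4.90%) at an unadjusted p under 0.05, and 6 passed in the fit of the 16 libraries on water, all higher (all genes 2.94%). Groups did not overlap for 8 members, all higher at 14 d (all genes 5.66%). The median log2 fold change was 0.21, between 0.16 and 0.24 when each library was left out. Summed levels were 3258, 3367, 3415 and 3378 CPM at 7 d and 3633, 4198, 4076 and 3756 CPM at 14 d.

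Eif4ebp1, the repressor of cap-dependent translation that mTORC1 inactivates, stood at 12.8, 10.9, 11.7 and 12.6 CPM at 7 d and 19.7, 22.9, 20.5 and 16.6 CPM at 14 d. It had a log2 fold change of 0.73 (SE 0.20, adjusted p = 0.249; 7.09e-04 in the fit of 16 libraries). Its 14 d mean of 19.9 ± 2.61 CPM was near the 18.8 CPM of unloaded mice and above the 10.3 CPM of ambulatory mice. Eef2, the elongation factor that moves the ribosome along, was at 579, 582, 535 and 589 CPM against 726, 847, 825 and 747 CPM (log2 0.46, SE 0.14, adjusted p = 0.276). Eif4b, a helper of the initiation helicase, went from 197 ± 17.1 to 262 ± 43.2 CPM (SD, n = 4; log2 0.41, SE 0.12, adjusted p = 0.255), with 14 d library 1 at 202 CPM inside the 7 d range. Cytosolic ribosomal proteins did not share this direction: their median was -0.01 over 27 genes. Rps12, a protein of the small subunit, was at 84.3, 90.1, 101 and 96.3 CPM at 7 d and 55.9, 55.5, 57.3 and 66.5 CPM at 14 d (log2 -0.66, SE 0.18, adjusted p = 0.221). Rpl19 of the large subunit went from 72.6 ± 6.06 to 50.6 ± 3.16 CPM (SD, n = 4; log2 -0.52, SE 0.19, adjusted p = 0.312).

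Pfkm, the muscle phosphofructokinase that commits sugar to glycolysis, rose. Its level was 1494, 1632, 1478 and 1286 CPM at 7 d and 2106, 2493, 2325 and 2293 CPM at 14 d, with a gap between the groups. Means were 1473 ± 142 and 2304 ± 159 CPM (SD, n = 4), a 1.56-fold rise (log2 0.65, SE 0.13, adjusted p = 0.0332). Ambulatory and unloaded means were 1659 and 1467 CPM, so that the 14 d group held the highest level on water. Pfkm lies at chr15:98092589-98132451 on the plus strand of GRCm38 and overlaps Senp1 on the other strand. Its call was lost without any 1 of 7 of the 8 libraries, with adjusted p from 0.0532 without 7 d library 2 to 0.359 without 7 d library 4; without 7 d library 1 or 3 it was 0.128 and 0.157, and without 14 d library 3, 4 or 5 it was 0.276, 0.11 and 0.127. Without the libraries high in Alb it was 0.187.

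Of the 16 glycolysis genes, Pfkm was the one that changed; 6 were higher (all genes 6.53%) and 0 lower (all genes 4.90%) at an unadjusted p under 0.05. Groups did not overlap for 4 members, all higher (all genes 5.66%). The list's median log2 fold change was 0.20, or 0.10 without 7 d library 4. The summed level was 15306, 18818, 17538 and 14610 CPM at 7 d and 19257, 23547, 23640 and 19591 CPM at 14 d, above the highest ambulatory sum of 16949 CPM in every 14 d library. Aldoa, the aldolase of fast muscle, was at 4934, 5411, 5395 and 5033 CPM against 6346, 8290, 8173 and 6209 CPM (log2 0.48, SE 0.15, adjusted p = 0.279), and it overlaps Fam57b. Slc16a3, the transporter that exports lactate from fast fibres, went from 57.0 ± 13.1 to 109 ± 27.4 CPM (SD, n = 4; log2 0.94, SE 0.32, adjusted p = 0.309). Ldhb, the lactate dehydrogenase subunit of slow and heart muscle, went the other way, from 100.3 ± 32 to 49.9 ± 52.1 CPM (log2 -1.01, SE 0.65, adjusted p = 0.559), with 126 CPM in 14 d library 1 and 8.22 CPM in 14 d library 3.

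Glycogen genes were also higher as a list. Of 16 tested, 0 changed, and 7 were higher (all genes 6.53%) and 0 lower at an unadjusted p under 0.05. The median was 0.27, and summed levels were 8590 to 10567 CPM at 7 d and 10651 to 13891 CPM at 14 d. Ppp1r3c, the scaffold that directs protein phosphatase 1 to glycogen and favours its synthesis, stood at 159, 157, 139 and 120.5 CPM at 7 d and 243, 309, 296 and 287 CPM at 14 d. Its log2 fold change was 0.98 (SE 0.23, adjusted p = 0.16; 0.00125 in the fit of 16 libraries). Unloaded mice averaged 752 CPM and ambulatory mice 232 CPM, so the 14 d level was between them and the 7 d level under both. Pygm, the muscle glycogen phosphorylase, went from 4276 ± 506 to 6178 ± 776 CPM (SD, n = 4; log2 0.53, SE 0.18, adjusted p = 0.287). Gyg, the primer of glycogen chains, went from 158 ± 10.7 to 210.3 ± 21 CPM (SD, n = 4; log2 0.41, SE 0.12, adjusted p = 0.255).

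The transcripts of fast energy turnover and calcium release were high in the same libraries. Adssl1, the muscle enzyme of the purine nucleotide cycle, was at 296, 284, 279.6 and 289 CPM at 7 d and 380.2, 431, 430.1 and 348 CPM at 14 d (log2 0.47, SE 0.11, adjusted p = 0.157). Ckm, muscle creatine kinase, went from 7436 ± 797 to 10519 ± 1639 CPM (SD, n = 4; log2 0.50, SE 0.18, adjusted p = 0.31). Of 21 calcium handling genes, 0 changed, 6 were higher (all genes 6.53%) and 1 lower (all genes 4.90%) at an unadjusted p under 0.05. The median was 0.13, or 0.08 without 14 d library 3 and 0.20 without 7 d library 3. Atp2a1, the calcium pump of fast fibres, was at 12965, 14639, 15040 and 15086 CPM against 16942, 23354, 22776 and 18586 CPM (log2 0.50, SE 0.16, adjusted p = 0.279), and overlaps Rabep2. Ryr1, the calcium release channel, went from 4842 ± 271 to 6603 ± 702 CPM (SD, n = 4; log2 0.45, SE 0.18, adjusted p = 0.355). In Ckm, Atp2a1 and Ryr1, and in the summed glycolysis level, 14 d libraries 3 and 4 were the highest pair.

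**Figure D2:**
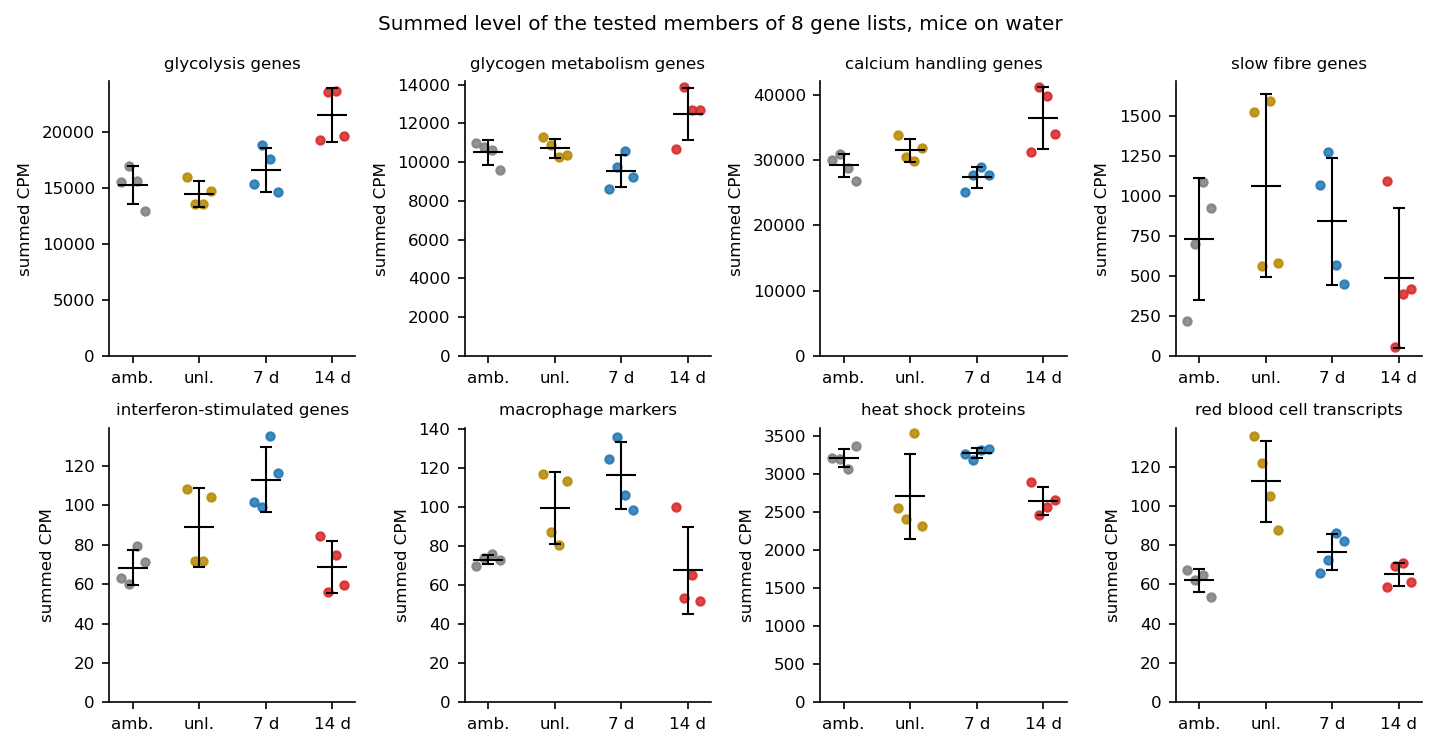
Summed CPM of the tested members of 8 gene lists in the groups on water. Dots are libraries, marks and bars are group means and SD, and every y axis starts at 0. The glycolysis, glycogen and calcium sums at 14 d lie above all 7 d sums, the interferon and heat shock sums lie below them, and the slow fibre sums run from 54.4 to 1092 CPM within the 14 d group.

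Fibre-type transcripts spread widely within the groups. Myh4, the myosin of the fastest fibres, was at 39206 to 51032 CPM at 7 d and 41587 to 62686 CPM at 14 d (log2 0.26, SE 0.16, adjusted p = 0.544). Myh2, the myosin of fast oxidative fibres, was at 2636, 3579, 1575 and 2086 CPM at 7 d and 2819, 117, 822 and 782 CPM at 14 d (log2 -1.12, SE 0.77, adjusted p = 0.583). Myh7, the slow myosin, was at 406, 460.3, 193 and 127 CPM and at 378, 0.881, 132 and 147 CPM (log2 -0.85, SE 1.10, adjusted p = 0.799). Slow and oxidative myosin were thus highest in 14 d library 1 and lowest in 14 d library 3 among the libraries at 14 d. All 12 slow fibre genes had a negative log2 fold change (all genes 48.5%). Their median of -0.83 became -0.46 without 14 d library 3 and -1.70 without 14 d library 1. Casq2, the calcium store protein of slow fibres, was the only one of them with an unadjusted p under 0.05 (all genes 4.90% lower). It went from 21.7 ± 5.09 to 9.67 ± 4.66 CPM (SD, n = 4; log2 -1.16, SE 0.51, adjusted p = 0.386). Among 15 fast fibre genes 4 were higher (all genes 6.53%) and 1 lower (all genes 4.90%) at an unadjusted p under 0.05. The list's median was 0.16, or 0.10 without 14 d library 3 and 0.25 without 14 d library 1. Myoz1, a partner of calcineurin at the Z-disc of fast fibres, went from 407 ± 56.1 to 669 ± 137 CPM (SD, n = 4; log2 0.72, SE 0.24, adjusted p = 0.302). The part of fibre content in the glycolysis, glycogen and calcium values was not tested. With 14 d library 3 left out the log2 fold change of Aldoa was 0.40 and that of Atp2a1 was 0.42.

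Haghl, similar in sequence to a glyoxalase-pathway hydrolase, had the largest rise of the 6 changed genes. It was at 2.13, 1.99, 1.75 and 1.27 CPM at 7 d and 3.68, 4.65, 4.36 and 3.82 CPM at 14 d, with no overlap. Means were 1.79 ± 0.378 and 4.13 ± 0.453 CPM (SD, n = 4), a 2.31-fold rise (log2 1.21, SE 0.22, adjusted p = 0.0132), beside 2.05 CPM in ambulatory and 1.81 CPM in unloaded mice. Haghl lies at chr17:25779843-25785673 on the minus strand and overlaps Narfl and Mir6966. Its adjusted p was 0.101 without 7 d library 3, 0.141 without 7 d library 4, and 0.0685 and 0.101 without 14 d libraries 3 and 4.

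Pip5k1a, a kinase that makes the membrane lipid phosphatidylinositol 4,5-bisphosphate, rose 1.49-fold, from 30.6, 29.8, 30.9 and 27.2 CPM to 39.1, 43, 45.1 and 49.7 CPM (log2 0.58, SE 0.11, adjusted p = 0.0132). It lies at chr3:95058530-95106930 on the minus strand and overlaps Gm22301. Without any 1 library other than 14 d library 1 its call was lost, with adjusted p from 0.0532 without 7 d library 2 to 0.141 without 7 d library 4; without 7 d library 1 or 3 it was 0.0679 and 0.101, and without 14 d library 3, 4 or 5 it was 0.0685, 0.101 and 0.127. Rc3h1, or Roquin-1, a protein that marks messenger RNAs of immune genes for decay, rose 1.38-fold, from 61.7, 53.2, 59.9 and 63.3 CPM to 75.6, 82.3, 80.9 and 89.6 CPM (log2 0.46, SE 0.09, adjusted p = 0.0332). It lies at chr1:160906418-160974978 on the plus strand. Its unloaded mean of 103 ± 8.66 CPM was the highest on water and its 7 d mean of 59.5 ± 4.41 CPM the lowest. The call was lost without any 1 library other than 14 d library 1, with adjusted p between 0.101 without 14 d library 4 and 0.237 without 7 d library 2; the values were 0.105, 0.137 and 0.141 without 7 d library 1, 3 and 4, and 0.164 and 0.158 without 14 d library 3 and 5.

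Pogk was next among the higher genes named and missed the threshold. It was at 15.1 to 16.6 CPM against 20.1 to 24.0 CPM, with no overlap between the groups (log2 0.48, SE 0.10, adjusted p = 0.0769). Pogk overlaps Tada1 on the opposite strand.

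Interferon-stimulated genes, the antiviral programme that interferons switch on through STAT and IRF factors, were lower at 14 d as a list. None of 22 tested members changed, beside 0.006% of all genes that fell; 10 were lower and 0 higher at an unadjusted p under 0.05 (all genes 4.90% lower). Fold changes were negative for 21 of 22, beside 48.5% of all genes, with a median of -0.84. The groups did not overlap for 8 members, all lower at 14 d (all genes 4.31%), and 8 passed in the fit of the 16 libraries on water, beside 2.35% of genes. Summed levels were 101, 99.1, 135 and 117 CPM at 7 d and 84.4, 56.3, 75.0 and 59.6 CPM at 14 d. The ambulatory sums of 60.1 to 79.4 CPM were all below the 7 d sums, and the 14 d sums reached into the ambulatory range. Unloaded sums were 71.6 to 108 CPM, so that their range overlapped that at 7 d. The median stayed between -0.90 and -0.67 when each library was left out.

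Ifitm3, a membrane protein that blocks virus entry, is interferon-induced but was not on the list. It was at 13.2, 15.4, 19.2 and 15 CPM at 7 d and 8.66, 7.14, 10.2 and 8.46 CPM at 14 d, without overlap (log2 -0.87, SE 0.19, adjusted p = 0.0769; 0.00132 in the fit of 16 libraries). Ambulatory mice had 8.70 CPM. Mx2, an antiviral GTPase, was at 1.62, 1.23, 1.22 and 1.27 CPM against 0.498, 0.294, 0.412 and 0.434 CPM (log2 -1.69, SE 0.45, adjusted p = 0.197). Ifit3, which binds foreign RNA in a complex with other IFIT proteins, was at 6.19, 3.73, 9.14 and 6.25 CPM against 2.54, 1.91, 2.35 and 1.39 CPM (log2 -1.63, SE 0.55, adjusted p = 0.302). Near-identical copies of Ifit3 exist in the mouse, and its reads may be split among them. Ddx58, the RIG-I sensor of viral RNA, went from 7.74 ± 0.579 to 4.42 ± 1.65 CPM (SD, n = 4; log2 -0.81, SE 0.23, adjusted p = 0.249). Gbp3, a guanylate-binding protein, went from 5.96 ± 2.17 to 2.26 ± 0.605 CPM (SD, n = 4; log2 -1.40, SE 0.49, adjusted p = 0.309). In each of these 5 genes every 14 d library was below every 7 d library.

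The element through which STAT and IRF proteins act on such genes has a core of GAAA, any 2 bases, and GAAA again. Promoter windows of 4 of these genes are shown because each holds a match to that core, on either strand: Ifitm3 and the list members that had both an unadjusted p under 0.05 and a match in the window. They come from RefSeq on GRCm38.p6, run 5′ to 3′ along the gene's strand with 170 bases before the start and the first 29 bases of the transcript, and carry the match, or its reverse complement, in capitals. The windows lie at chr7:141010716-141010914 on the minus strand, chr4:40239797-40239995 on the minus strand, chr3:142559874-142560072 on the plus strand and chr19:34583359-34583557 on the plus strand, in the order given.
Ifitm3: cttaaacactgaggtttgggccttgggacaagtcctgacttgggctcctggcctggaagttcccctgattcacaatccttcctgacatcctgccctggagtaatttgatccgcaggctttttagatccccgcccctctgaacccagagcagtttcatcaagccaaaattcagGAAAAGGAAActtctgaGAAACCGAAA
Ddx58: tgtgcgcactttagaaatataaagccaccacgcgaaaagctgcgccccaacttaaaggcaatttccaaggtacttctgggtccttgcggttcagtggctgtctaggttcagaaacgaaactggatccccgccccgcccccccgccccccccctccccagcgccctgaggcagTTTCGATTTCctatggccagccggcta
Gbp3: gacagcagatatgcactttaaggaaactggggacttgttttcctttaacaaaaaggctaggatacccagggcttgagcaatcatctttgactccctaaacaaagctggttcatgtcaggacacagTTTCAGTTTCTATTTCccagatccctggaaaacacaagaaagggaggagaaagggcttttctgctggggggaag
Ifit3: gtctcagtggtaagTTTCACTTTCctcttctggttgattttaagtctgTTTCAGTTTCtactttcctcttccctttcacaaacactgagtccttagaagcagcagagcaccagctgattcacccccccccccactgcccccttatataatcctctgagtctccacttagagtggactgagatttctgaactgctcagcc
Ifitm3 holds 2 matches and Ddx58 1 match within the first bases of the transcript, the first of each starting at base 3, and Gbp3 and Ifit3 2 each before the start, those of Gbp3 overlapping. Among 16 tested members of the list with a RefSeq promoter, 11 held the core in the 300 bases from 250 before to 50 after the start (68.8%). Of all 27025 genes with a promoter of that length, 3.99% held the core. Of the 8 members with a promoter and an unadjusted p under 0.05, 3 held it; Ifi44, Ifit2, Irf7, Oasl2 and Xaf1 held none in this window. A match is a run of letters and says nothing on binding in these muscles. For comparison, TGATGNAA, the core bound by ATF4 with C/EBP partners, stood in 6 of 18 members of the ATF4 list with a promoter (33.3%). It stood in 4.51% of all genes with a promoter.

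Macrophage markers were lower at 14 d with more spread. Of 20 tested, 0 changed, 9 were lower (all genes 4.90%) and 0 higher at an unadjusted p under 0.05, and the median log2 fold change was -0.91. Summed levels were 125, 136, 107 and 98.4 CPM at 7 d and 100.1, 53.3, 65.2 and 51.9 CPM at 14 d. The groups overlapped through 14 d library 1, and the median without that library was -1.19. Ambulatory sums were 69.9 to 75.9 CPM. Unloaded sums were 80.4 to 117 CPM, a range that overlapped that at 7 d. Ctss, a protease of antigen-presenting cells, was at 7.01, 10.4, 7.28 and 4.28 CPM against 2.74, 1.17, 2.47 and 2.00 CPM (log2 -1.79, SE 0.64, adjusted p = 0.313). Mrc1, the mannose receptor of resident macrophages, went from 19.7 ± 1.83 to 12 ± 3.22 CPM (SD, n = 4; log2 -0.72, SE 0.32, adjusted p = 0.399). Folr2, a folate receptor of resident macrophages, went from 1.55 ± 0.323 to 0.694 ± 0.268 CPM (SD, n = 4; log2 -1.16, SE 0.38, adjusted p = 0.285). In bulk tissue, fewer macrophages and less RNA per macrophage cannot be told apart. Interferon and macrophage sums were both below every 7 d sum in 14 d libraries 3, 4 and 5. Within the 7 d group their orders differed. There, libraries 1 and 2 had the highest macrophage sums (125 and 136 CPM) and the lowest interferon sums (101 and 99.1 CPM). The part of macrophage content in the interferon values was not tested.

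Antigen presentation genes were also lower in sum. They had a median of -0.36 over 14 genes, or -0.22 without 14 d library 5, with sums of 219 to 271 CPM at 7 d and 153 to 184 CPM at 14 d. B2m, the light chain of class I molecules, stood at the low end of the list. It was at 93.5, 76.9, 139 and 117 CPM against 60.5, 58.1, 63.0 and 73.2 CPM (log2 -0.74, SE 0.24, adjusted p = 0.279), and overlaps Patl2. Of the neutrophil markers, 3 of 10 reached the level for testing, and Ly6g, Ngp, Camp and Ltf had 0 counts in all 8 libraries. Tnfsf10, the death ligand TRAIL, was at 9.95, 12.4, 8.88 and 9.64 CPM against 6.17, 5.38, 6.47 and 5.03 CPM (log2 -0.83, SE 0.21, adjusted p = 0.19). Cradd, an adaptor of caspase-2, went from 7.12 ± 0.825 to 4.65 ± 0.388 CPM (SD, n = 4; log2 -0.61, SE 0.16, adjusted p = 0.19) and overlaps Gm48882.

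Proliferation genes were lower on balance, without a changed member. Of 16 tested genes of mitosis and DNA replication out of 22 listed, 5 were lower (all genes 4.90%) and 1 higher (all genes 6.53%) at an unadjusted p under 0.05. The median was -0.55, or -0.32 without 7 d library 2. Mki67, present only in cycling cells, was at 3.76, 5.77, 3.77 and 1.74 CPM at 7 d and 2.04, 0.538, 0.412 and 0.608 CPM at 14 d (log2 -2.05, SE 0.77, adjusted p = 0.336). The groups overlapped, since 14 d library 1 was above 7 d library 4. Cell cycle inhibitors and p53 genes, a separate list with 20 tested, had a median of 0.11, with 12 positive and 8 negative fold changes. Of these 20, 1 was higher (all genes 6.53%) and 2 lower (all genes 4.90%) at an unadjusted p under 0.05. Gadd45a, a growth arrest gene induced by damage and disuse, was at 21.2, 10.3, 11.5 and 17.9 CPM against 7.27, 6.51, 6.18 and 5.30 CPM (log2 -1.27, SE 0.36, adjusted p = 0.255).

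**Figure D3:**
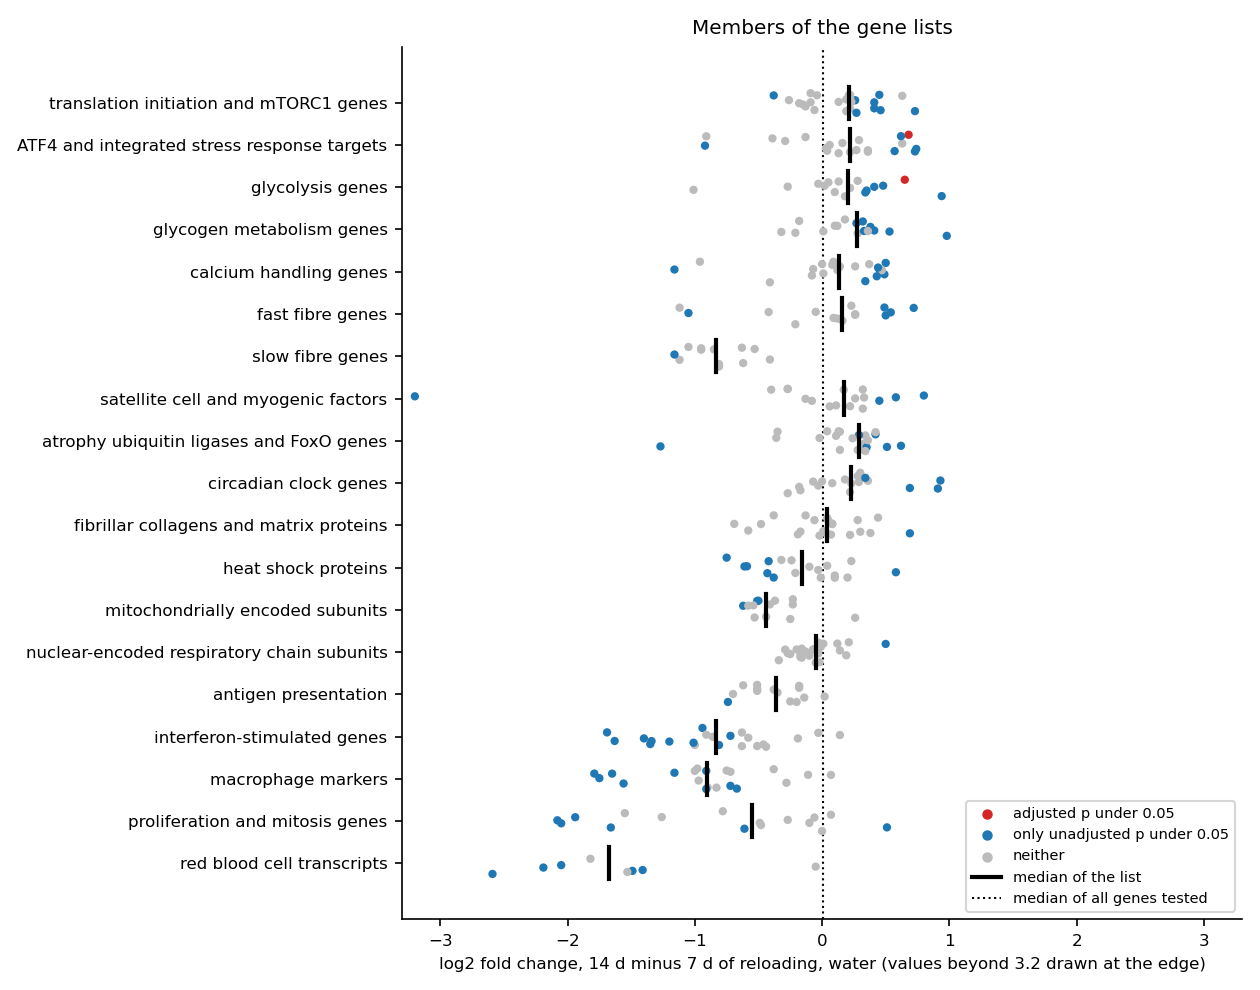
Log2 fold changes of the tested members of 19 of the 51 gene lists, 14 d minus 7 d on water, 1 dot a gene, with colours for the test. Black bars are list medians and the dotted line is the median of all genes, 0.01; 1 satellite cell gene, Mymk, lies beyond the left edge. Atf4 and Pfkm are the members that changed, and the interferon, macrophage and red blood cell medians lie at -0.84, -0.91 and -1.68.

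Heat shock proteins, the chaperones that refold damaged proteins and that loading of muscle induces, were lower in sum at 14 d. Of 18 tested, 0 changed, 6 were lower (all genes 4.90%) and 1 higher (all genes 6.53%) at an unadjusted p under 0.05, and groups did not overlap for 6, all lower (all genes 4.31%). Fold changes were negative for 12 (all genes 48.5%) and positive for 6, with a median of -0.15, or -0.34 without 14 d library 1. Sums were 3263, 3175, 3309 and 3328 CPM at 7 d, within the ambulatory range of 3069 to 3367 CPM, and 2893, 2460, 2561 and 2655 CPM at 14 d, below it. Unloaded sums ran from 2319 to 3531 CPM, a range that held the sums of both times. Hsph1, a large chaperone that recharges HSP70, was at 74.1, 55.3, 69.5 and 69.5 CPM against 44.9, 43.2, 45 and 42.3 CPM (log2 -0.61, SE 0.15, adjusted p = 0.19; 0.00122 in the fit of 16 libraries). The ambulatory level of Hsph1 was 60.8 CPM and the unloaded level 32.7 CPM. Hspd1, the mitochondrial chaperonin, went from 119.8 ± 7.00 to 89.5 ± 3.29 CPM (SD, n = 4; log2 -0.42, SE 0.18, adjusted p = 0.376), and it overlaps its neighbour on the other strand.

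Red blood cell transcripts had negative fold changes from low levels. None of 8 changed, and 5 were lower at an unadjusted p under 0.05 (all genes 4.90%). All 8 had a negative fold change (all genes 48.5%), with a median of -1.68. Their sums overlapped, at 65.8 to 86.1 CPM at 7 d and 58.6 to 71 CPM at 14 d. Hbb-bs, a beta globin, was at 5.13, 3.47, 3.88 and 7.29 CPM against 1.19, 0.685, 1.53 and 1.39 CPM (log2 -2.05, SE 0.66, adjusted p = 0.28). Its unloaded mean was 18.2 CPM and its ambulatory mean 1.87 CPM. Globin genes have near-identical copies, so their reads may be split. Alas2, the haem synthesis enzyme of red cells, went from 5.92 ± 1.36 to 2.09 ± 0.316 CPM (SD, n = 4; log2 -1.49, SE 0.58, adjusted p = 0.356). The part of blood left in the tissue in the immune values was not tested.

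The fall of n-R5-8s1 was the largest of the 6 changes. Its level was 3.30, 2.91, 7.39 and 6.35 CPM at 7 d and 0.796, 0.783, 0.294 and 0.998 CPM at 14 d, with ambulatory and unloaded means of 11.3 ± 3.37 and 10.3 ± 2.76 CPM. The highest 14 d library was below the lowest 7 d library, a 6.73-fold difference (log2 -2.75, SE 0.50, adjusted p = 0.0132). Its adjusted p was 0.115 and 0.141 without 7 d libraries 3 and 4, 0.0685 and 0.101 without 14 d libraries 3 and 4, and 0.0648 without the libraries high in Alb. Ribosomal RNA had been removed from these libraries, so the value counts what was left after removal, and its relation to the ribosome content of the muscle was not tested.

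Both mitochondrial ribosomal RNAs leaned the same way. mt-Rnr1 was at 7507, 7821, 9895 and 9623 CPM at 7 d and 4364, 3586, 3952 and 4907 CPM at 14 d (log2 -1.05, SE 0.32, adjusted p = 0.276). mt-Rnr2 was at 4056, 5130, 6378 and 6121 CPM against 3192, 2126, 2490 and 3613 CPM (log2 -0.93, SE 0.37, adjusted p = 0.367). In both, groups did not overlap. The 13 mitochondrially encoded protein subunits had a median of -0.44, and none changed, 3 being lower at an unadjusted p under 0.05 (all genes 4.90%). Their sums were 104691, 109923, 122469 and 130431 CPM at 7 d and 89907, 76389, 79707 and 106697 CPM at 14 d. The 27 nuclear-encoded respiratory chain subunits had a median of -0.05, or -0.14 without 14 d library 1. Ppargc1a, the coactivator that drives mitochondrial growth, was at 74.2, 61.3, 66.3 and 76.5 CPM against 131, 44.9, 46.3 and 58.1 CPM (log2 0.01, SE 0.29, adjusted p = 0.992), with 14 d library 1 far above the rest; without it the log2 fold change was -0.50. Cox20, a nuclear gene for an assembly factor of cytochrome oxidase, was at 13.4, 13.7, 17.5 and 19.5 CPM against 6.77, 6.02, 8.36 and 9.85 CPM (log2 -1.05, SE 0.28, adjusted p = 0.206; 7.09e-04 in the fit of 16 libraries). Cox20 overlaps Hnrnpu on the other strand.

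With the level of n-R5-8s1 as a covariate in the fit, no gene changed by edgeR's test and 732 stood at an unadjusted p under 0.05. Since that level itself did not overlap between the groups, its part and that of reloading time cannot be told apart in such a fit. Under the covariate the log2 fold change of Atf4 was 0.64 (SE 0.17, adjusted p = 0.945) and that of Rc3h1 was 0.54 (SE 0.13, adjusted p = 0.74), those of Haghl, Pfkm and Pip5k1a being 0.82, 0.44 and 0.41.

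**Figure D4:**
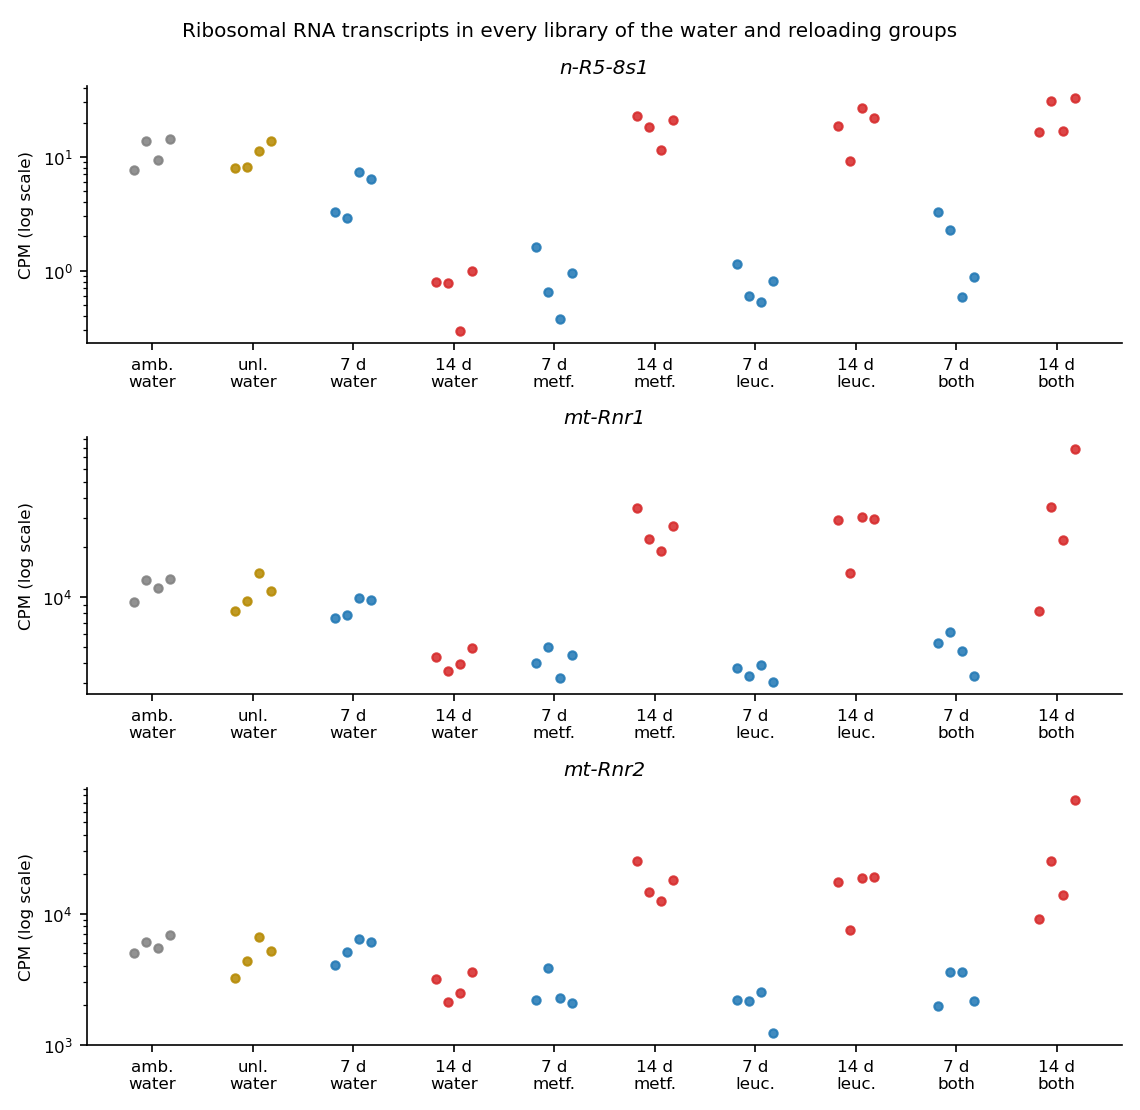
Levels of n-R5-8s1, mt-Rnr1 and mt-Rnr2 on a log axis of CPM in the libraries of 10 groups, 1 dot a library. The n-R5-8s1 levels at 14 d are 0.294 to 0.998 CPM on water, under the 2.91 to 7.39 CPM at 7 d, while on metformin (metf.), leucine (leuc.) and both the 14 d libraries lie above the 7 d libraries.

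Muscle stem cell and myogenic factors showed single genes rather than a shared shift. Of 17 tested, 0 changed, 3 were higher (all genes 6.53%) and 1 lower (all genes 4.90%) at an unadjusted p under 0.05. The median was 0.17, or 0.06 without 7 d library 4 and 0.27 without 7 d library 1. Pax7, the marker of satellite cells, was at 2.28, 1.63, 1.28 and 1.32 CPM at 7 d and 2.49, 2.54, 2.35 and 2.39 CPM at 14 d (log2 0.58, SE 0.28, adjusted p = 0.415). Myod1, the factor of their activation and also of fast fibres, was at 8.73, 9.09, 5.21 and 6.63 CPM against 12, 13, 12.9 and 13.7 CPM (log2 0.80, SE 0.28, adjusted p = 0.31; 0.00642 in the fit of 16 libraries). Both had no overlap between groups. Myog, the factor of differentiation, went from 1.86 ± 1.26 to 1.76 ± 0.219 CPM (SD, n = 4; log2 -0.08, SE 0.42, adjusted p = 0.96). Mymk, the membrane protein needed for myoblast fusion, was at 0.305, 0.868, 0.213 and 0.047 CPM at 7 d and had 0 counts in all 4 libraries at 14 d. Against a floor of 3 counts over the 14 d group, which is 0.0372 CPM, the 14 d level was at least 9.62-fold lower, or at least 5.05-fold lower without 7 d library 2. The floor covers counting error at 14 d only. Error of the 7 d mean, which also comes from low levels, is not part of these bounds.

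Collagens showed no shared direction at this depth and spread. Of 22 tested fibrillar collagens and matrix proteins, 1 was higher (all genes 6.53%) and 0 lower at an unadjusted p under 0.05. The median of 0.04 became -0.26 without 14 d library 1. Col1a1 was at 56.1, 44.7, 24.1 and 10.2 CPM against 95.8, 22.5, 23.4 and 41.9 CPM (log2 0.44, SE 0.53, adjusted p = 0.778). Col3a1 was at 92.5, 77.5, 41.4 and 20 CPM against 98.1, 43.3, 40.8 and 61.5 CPM (log2 0.08, SE 0.42, adjusted p = 0.962). Without 14 d library 1 the log2 fold changes of Col1a1 and Col3a1 were -0.21 and -0.26. The 1 member at an unadjusted p under 0.05 was Col5a3, a minor fibrillar chain, from 11.1 ± 4.60 to 17.9 ± 1.94 CPM (SD, n = 4; log2 0.69, SE 0.25, adjusted p = 0.318).

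Atrophy genes leaned higher at 14 d. Of 23 ubiquitin ligases and FoxO genes, 0 changed, 5 were higher (all genes 6.53%) and 1 lower (all genes 4.90%) at an unadjusted p under 0.05, and 19 had a positive fold change (all genes 51.5%). The median was 0.29, or 0.16 without 7 d library 1. Sums were 2199, 1996, 2231 and 2317 CPM at 7 d and 2251, 2788, 2636 and 2613 CPM at 14 d, under the unloaded range of 2925 to 3214 CPM. Trim63, the ligase MuRF1, was at 152, 101, 139 and 153 CPM against 167, 173, 186 and 160.1 CPM (log2 0.33, SE 0.25, adjusted p = 0.627), beside 273 CPM in unloaded mice. Fbxo32, the ligase atrogin-1, went from 440.2 ± 94.1 to 533 ± 114 CPM (SD, n = 4; log2 0.28, SE 0.23, adjusted p = 0.655). Foxo3 went from 33.8 ± 2.58 to 45.3 ± 4.26 CPM (SD, n = 4; log2 0.42, SE 0.13, adjusted p = 0.276), and Foxo1 from 29.7 ± 5.95 to 36.8 ± 2.59 CPM (log2 0.31, SE 0.21, adjusted p = 0.569), with 163 CPM in unloaded mice. Mstn, the growth inhibitor myostatin, had a log2 fold change of 0.24 (SE 0.33, adjusted p = 0.812). Ddit4, an inhibitor of mTORC1 that disuse induces, was at 2.77 ± 0.775 and 3.41 ± 0.845 CPM (SD, n = 4; adjusted p = 0.854), beside 62.6 CPM in unloaded mice.

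Growth and clock genes held a few further differences. Igf1, the local growth factor, was at 40.6, 39.1, 35.8 and 25.4 CPM against 25.4, 24.8, 21.4 and 30.7 CPM (log2 -0.46, SE 0.20, adjusted p = 0.38; 0.0442 in the fit of 16 libraries), with overlap. Stat5b, which carries the growth hormone signal, was at 156, 137, 149 and 131 CPM against 164, 280.2, 258 and 245 CPM (log2 0.73, SE 0.19, adjusted p = 0.19). Socs2, the inhibitor that this pathway induces, went from 11.6 ± 1.86 to 6.85 ± 1.65 CPM (SD, n = 4; log2 -0.76, SE 0.24, adjusted p = 0.279). Among 18 circadian clock genes, 4 were higher (all genes 6.53%) and 0 lower at an unadjusted p under 0.05, with a median of 0.23, or 0.12 without 7 d library 1. Arntl, the BMAL1 factor, was at 17.1, 15.3, 9.52 and 9.92 CPM against 19.1, 27.6, 24.8 and 25.8 CPM (log2 0.91, SE 0.26, adjusted p = 0.255); the hour at which tissue was taken was not given in the sources used here. Lpin2, a phosphatidate phosphatase, went from 6.09 ± 1.12 to 3.65 ± 0.384 CPM (SD, n = 4; log2 -0.74, SE 0.19, adjusted p = 0.197). Slc16a6, of the monocarboxylate transporter family, went from 4.66 ± 0.549 to 2.19 ± 1.11 CPM (log2 -1.09, SE 0.28, adjusted p = 0.197) and overlaps Amz2 and Arsg. Sh2d4a went from 6.10 ± 1.27 to 3.47 ± 0.312 CPM (log2 -0.81, SE 0.21, adjusted p = 0.19) and overlaps Gm19170.

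The same interval was measured in mice on metformin, leucine or both, with 12 libraries at each time, none of them shared with the water groups. Over the mean of those drinks 4739 genes changed (28.4%), 2320 higher at 14 d (13.9%) and 2419 lower (14.5%), by edgeR's test, and 2318 without the libraries high in Alb. The change differed between water and the drinks for 2157 genes (12.9%), being higher on water for 1248 (7.49%) and lower for 909 (5.45%); without the libraries high in Alb it did for 1160. All 6 genes that changed on water were among those that differed. The difference contains the water change by which these 6 were picked, so their count and p-values are not independent of that choice. Atf4 had a log2 fold change of -0.12 on the drinks (adjusted p = 0.243), a difference of 0.80 from water (SE 0.15, adjusted p = 7.64e-04). Pfkm had -0.10 (adjusted p = 0.347) and a difference of 0.74 (SE 0.15, adjusted p = 0.00177). On metformin, leucine and both taken singly, the log2 fold changes were -0.20, 0.07 and -0.22 for Atf4 and -0.13, 0.05 and -0.21 for Pfkm, all below the values on water. Haghl fell by 0.33 on the log2 scale on the drinks (adjusted p = 0.0386), a difference of 1.54 (SE 0.25, adjusted p = 1.44e-04). Pip5k1a and Rc3h1 differed by 0.69 (adjusted p = 6.78e-04) and 0.37 (adjusted p = 0.0199). Without 14 d library 3 on water, 1150 genes differed, and without 1 library of the 14 d combination group, its replicate 1, 4590 did.

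Glycolysis, calcium handling and translation lists had medians below 0 on the drinks. The median of the glycolysis list was -0.36, with 10 members that fell (all genes 14.5%) and 1 that rose (all genes 13.9%). Of its 16 members, 11 differed from water (all genes 12.9%). Slc16a3 had -0.73 on the drinks (adjusted p = 0.00333) and a difference of 1.67 (SE 0.37, adjusted p = 0.00449). Calcium handling genes had a median of -0.17, with 9 of 21 that differed (all genes 12.9%). Translation and mTORC1 genes had a median of -0.10, with 8 of 26 that differed. Eif4ebp1 differed by 1.00 (SE 0.24, adjusted p = 0.00593) and Myod1 by 1.19 (SE 0.33, adjusted p = 0.0143).

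Interferon genes had a median of -0.13 on the drinks, and 2 of 22 members differed from water in opposite directions, beside 12.9% of all genes, which says nothing particular to the list: Gbp3 by -1.65 (SE 0.55, adjusted p = 0.0419) and Ifi27 by 0.91 (SE 0.25, adjusted p = 0.0146); both were named after their values were seen. Macrophage markers had a median of -0.64 on the drinks and 0 of 20 differed (all genes 12.9%). Antigen presentation genes had a median of -0.35 on the drinks, near that on water, and 1 of 14 differed (all genes 12.9%). Ifitm3, off the list, differed by -0.91 (SE 0.22, adjusted p = 0.00633). Cox20 rose by 0.66 on the drinks (adjusted p = 0.002), a difference of -1.71 (SE 0.32, adjusted p = 9.21e-04).

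The ribosomal RNAs moved in opposite directions. n-R5-8s1 rose on the drinks by 4.25 on the log2 scale (adjusted p = 4.71e-15), a difference of -7.00 from water (SE 0.57, adjusted p = 3.53e-11), and mt-Rnr1 rose by 2.80 (adjusted p = 1.90e-14). All 13 mitochondrially encoded subunits rose on the drinks (all genes 13.9%), with a median of 1.58, and 12 of 13 differed from water (all genes 12.9%). The part of the residual ribosomal RNA in the differences between drinks cannot be told apart from that of the drink and time here.

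**Figure D5:**
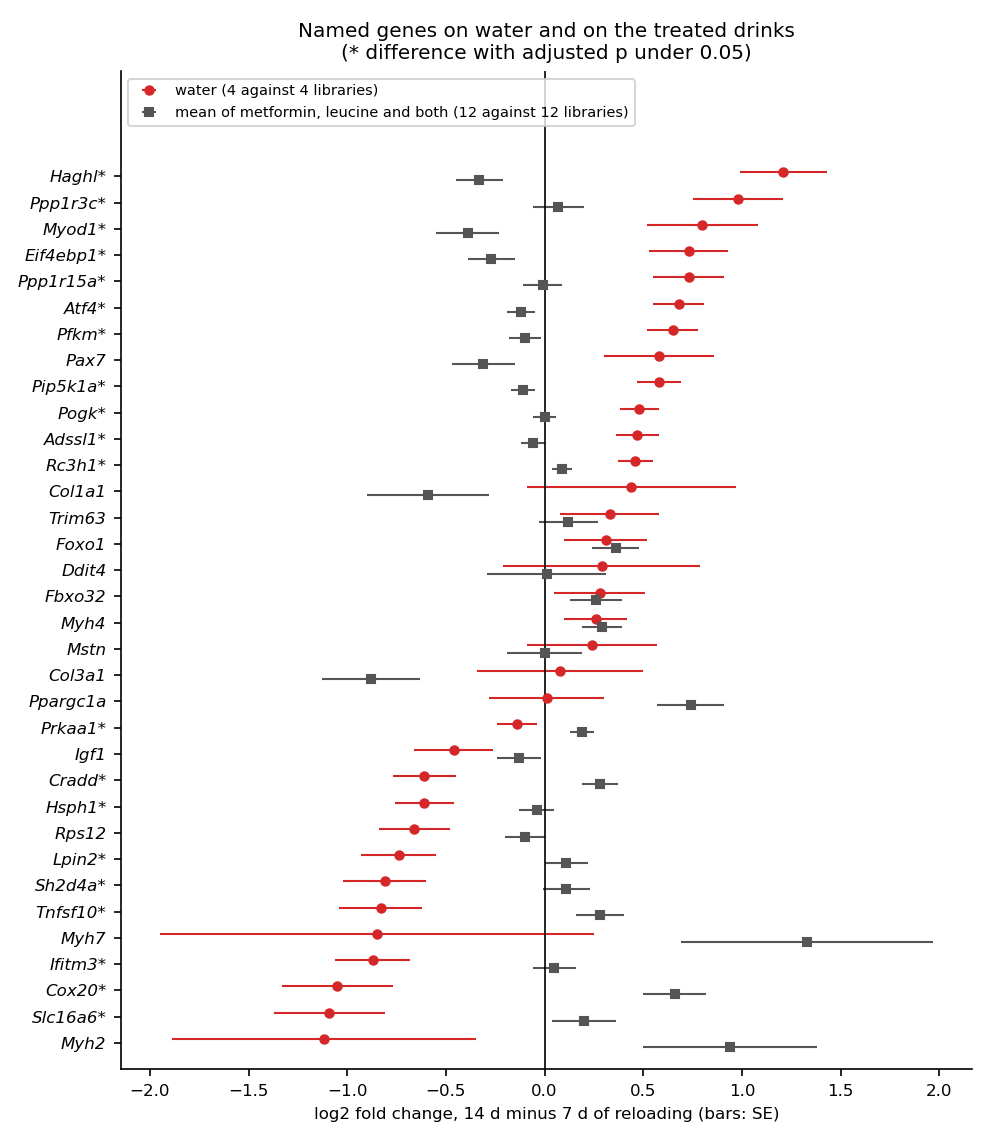
Log2 fold changes, 14 d minus 7 d, of the named genes other than n-R5-8s1 on water (red circles, 4 against 4 libraries) and over the mean of the metformin, leucine and combination drinks (grey squares, 12 against 12), with SE bars. A star marks a difference between water and the drinks with an adjusted p under 0.05, as for Haghl, Atf4, Pfkm, Pip5k1a and Rc3h1, whose red points all lie to the right of 0.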

How the data were processed

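The deposited table holds whole-number counts per gene for 52 libraries, not normalized; per the submitters' processing notes reads were processed with STAR 2.7.3a and featureCounts 1.6.3 on GRCm38, and DESeq2 1.30.0 is named there too. Per the labels' protocols, libraries were stranded total RNA with ribosomal RNA removed. Strand setting and annotation release are not given in the sources used here. Symbols and positions came from GENCODE vM21 on GRCm38 by identifier (55227 of 55487 matched), and promoters from RefSeq on GRCm38.p6.

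Samples were grouped by their titles. Genes passing filterByExpr (minimum count 10) were kept, 16668 in all. After TMM scaling, edgeR 4.0.16 in R 4.3.3 fitted a robust quasi-likelihood model of all 52 libraries with 13 group means (39 residual degrees of freedom, common dispersion 0.045). P-values were adjusted by the Benjamini-Hochberg method over all tested genes, and changed means an adjusted p under 0.05. CPM use the scaled totals, and SEs come from the F statistic. The mean of the treated drinks weights the 3 drinks equally. Alternatives used limma 3.58.1, DESeq2 1.42.0, other scalings, filters and subsets of libraries, a covariate, a replicate block, and leaving out each library.

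Tested on simulated data of 16394 genes for the 14 d against 7 d comparison, the fit recovered 41.8% of 67 genes set at 1.5-fold, 82.1% of 67 at 2-fold and 98.5% of 66 at 4-fold, with 7 of 155 calls outside the changed set. Changes were set only in genes with an average log2 CPM of 1 or more. Noise was drawn separately for each gene, and the groups had the same means otherwise. Differences between libraries that many genes share were not simulated, so these shares need not hold for the real libraries.

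Named genes were the 10 highest and 10 lowest changed genes whose groups did not overlap, whose average log2 CPM was 1 or more and whose symbol was no predicted or clone name, with unfilled places given to the smallest unadjusted p, then up to 2 rising and 2 falling changed members of each of 51 gene lists, then 17 genes given whatever they did. Leaving out 1 gene that is not reported here, this named 35 genes, 6 changed and 29 not, and 16 of the 35 overlap a gene on the opposite strand. Other genes stand as examples of their list or of the genes beside it. The members and lists were chosen with earlier results of these data known, and 2 further lists were added after values were seen.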

Additional observations from a re-analysis of the deposited data

Results flagged for a closer look

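Of 176 groups of 4 libraries examined, 11 held a library far from its group, beside 8.8 that chance gives. For single genes these were Rps12 in 14 d library 5 (66.5 CPM) and Ppargc1a in 14 d library 1 (131 CPM). For summed lists, 14 d library 1 stood apart for basement membrane genes (1076 CPM), citric acid cycle and fat oxidation genes (7026 CPM) and mitochondrial biogenesis regulators (606 CPM). The sarcomere and stretch sum stood apart in 7 d library 1 (214680 CPM), the ATF4 sum in 7 d library 2 (463 CPM), the glutathione and NRF2 sum in 7 d library 4 (1027 CPM) and the adipocyte sum in 7 d library 3 (887 CPM). Liver transcripts stood apart in 7 d library 2 (8.63 CPM) and in 14 d library 5 (181 CPM).

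The 14 d minus 7 d change differed between water and the treated drinks, by edgeR's test of the difference, for 21 of the 35 named genes (all genes 12.9%). That count follows in part from how genes were named. The 6 changed genes and the 13 with the smallest p were picked by the water change, which enters this test. Of these, 6 and 12 differed. Of the 16 given whatever they did, Myod1, Eif4ebp1 and Prkaa1 differed. The log2 change was higher on water by 1.54 for Haghl, 0.80 for Atf4, 0.74 for Pfkm, 0.69 for Pip5k1a, 0.37 for Rc3h1, 0.48 for Pogk, 0.53 for Adssl1, 0.90 for Ppp1r3c, 0.75 for Ppp1r15a, 1.19 for Myod1 and 1.00 for Eif4ebp1. The difference was -7.00 for n-R5-8s1, -0.91 for Ifitm3, -0.58 for Hsph1, -1.11 for Tnfsf10, -0.92 for Sh2d4a, -0.90 for Cradd, -1.29 for Slc16a6, -0.84 for Lpin2, -1.71 for Cox20 and -0.33 for Prkaa1.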

How the results depend on the processing

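The count of changed genes, 6, was 6 with RLE size factors, 4 without a filter on low counts, 5 among protein-coding nuclear genes and 7 with the replicate block, of which 5 were shared. It was 1 without the libraries high in Alb, 270 (188 higher, 82 lower) without replicates 1 and 6 of the 14 d combination group, 0 with the n-R5-8s1 covariate (732 at an unadjusted p under 0.05), 390 in the 8 libraries, 801 in the 16 on water, 1324 with limma voom, 36 with DESeq2 (27 higher, 9 lower) and 0 to 8 when each library was left out. The difference between water and the treated drinks, 2157 genes, was 1151 without the filter, 1160 without the libraries high in Alb, 0 with the covariate (557 unadjusted), 5374 with voom, 2139 with the replicate block and 1150 to 4590 when a library was left out; 7 d libraries 3 and 4 and 14 d library 4 on water gave 1300, 1219 and 1172. The change on the treated drinks, 4739 genes, was 2318 without the libraries high in Alb, 0 with the covariate (756 unadjusted), 4300 with the replicate block and 3679 to 6995 when a library was left out. Fewer libraries enter some of these fits; otherwise the cause was not tested.

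Of 664 recomputed fold changes of named genes, 535 kept direction and side of the threshold, 48 lost it, 70 gained it and 11 turned. Ppargc1a was -0.06 with the replicate block, -0.01 in the 8 libraries, -0.00 in the 16, -0.34 with voom and -0.50 to 0.16 when a library was left out, below 0 without 7 d library 2 (-0.06), 7 d library 3 (-0.02) and 14 d library 1. Left-out libraries took Col3a1 from -0.26 to 0.38, below 0 without 7 d library 3 (-0.06), 7 d library 4 (-0.22) and 14 d library 1, and Col1a1 from -0.21 without 14 d library 1 to 0.79. With the covariate, whose own level separates the groups compared and cannot be told apart from them, Atf4 was 0.64 (adjusted p = 0.945) and Haghl 0.82 (0.999). Without the filter the adjusted p of Pip5k1a was 0.0701 and of Rc3h1 0.322; without the libraries high in Alb both were 0.187.

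Replicate numbers were not treated as pairs in the main fit. Deviations of same-numbered libraries correlated at 0.0513 to 0.181 over 3 pairs and those of other pairs at -0.277 to 0.328. With 3 pairs, these values cannot decide whether the numbers pair the samples. With the replicate block Ppp1r3c was 1.12 (adjusted p = 0.012) and Rc3h1 0.45 (0.0542). The median SE was 0.23, and simulated data, which left out differences that many genes share, returned 41.8% of 1.5-fold changes.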
